A study of Arabidopsis thaliana with 24 samples.

Results

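This account covers the red-light response of MLB seedlings, an Arabidopsis thaliana line whose phytochrome B (phyB) is made in the epidermis. Its members are all 3887 rows of the authors' comparison of MLB seedlings in red light with MLB seedlings in darkness, and both gene comparisons analysed here listed 4422 genes in all. The authors listed a gene where the absolute log2 fold change was above 1 and the false discovery rate (FDR) was below 0.01. The number of genes they tested, recovered from the FDR values, was 19916, so 19.5% of tested genes were listed. By direction, 2540 genes (12.8% of those tested) were higher in MLB red and 1347 (6.76%) were lower.

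MLB red and MLB dark were 3 libraries each of the 24 in the series, from whole seedlings at 60 h. A few comparisons at the end draw on EMS27 red, an rrc1 mutant of MLB, and on Col-0 red and its mutant rrc1-689 red, 3 libraries each under the same red light. The 6 libraries of MLB red and MLB dark carry the ML1pro::PHYB transgene in the phyB-9 mutant of the Col-0 ecotype. Their phyB thus comes from an epidermal promoter, and the plant's own phyB is missing in both groups. All seeds had 2 days of cold, and then white light of 50 µmol per m2 and s lasting 6 h. MLB red then had 60 h of continuous red light at 19 µmol per m2 and s, and MLB dark had 60 h of continuous darkness. The labels put 4 °C beside the white light, the red light and the darkness, whereas the deposited information sheet gives no temperature for those steps. The line keeps its other photoreceptors, and a group in red light without phyB is not analysed here, so a change between red light and darkness cannot be assigned to phyB. No source used here says that the 3 libraries of a group were separate cultures, so the FDR values measure a spread that may be technical.

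Phytochromes are red-light receptors that move to the nucleus when activated, where they remove the phytochrome-interacting factors (PIFs), transcription factors that hold seedlings in their dark-grown form. A dark-grown seedling lives on seed reserves, elongates its hypocotyl and keeps its cotyledons closed. In the light it builds chloroplasts, opens its cotyledons and starts to divide cells in the shoot.

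Values below are the authors' log2 fold changes of MLB red over MLB dark, so a positive value is higher in red light. The table holds no level and no value per library, so no sample-by-sample spread can be shown and each call rests on the authors' test. A listed gene passed that test, whereas a gene that is not listed may be unchanged, below the fold limit or too low to be tested. In bulk RNA, fewer cells of a type and less RNA per cell cannot be told apart.

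Rises were larger than falls as well as more numerous. The median was 1.75 among the higher genes and -1.47 among the lower genes of the authors' deposited table, or 3.37-fold and 2.76-fold. Above a log2 change of 3 there were 409 higher genes, against 131 lower genes below -3, and beyond 5 the counts were 102 higher and 23 lower. Over all 3887 genes 65.3% were higher and the median was 1.28, which is the background for the lists below. Of 27444 annotated nuclear protein-coding genes, 13.0% were listed, 8.63% higher and 4.36% lower.

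Pathways were followed with 27 gene lists of 958 loci, of which 309 were listed. The plot of calls by pathway shows that chloroplast and primary carbon lists had rises nearly alone. Reserve breakdown, starvation and abscisic acid lists had more falls than rises.

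**Figure D1:**
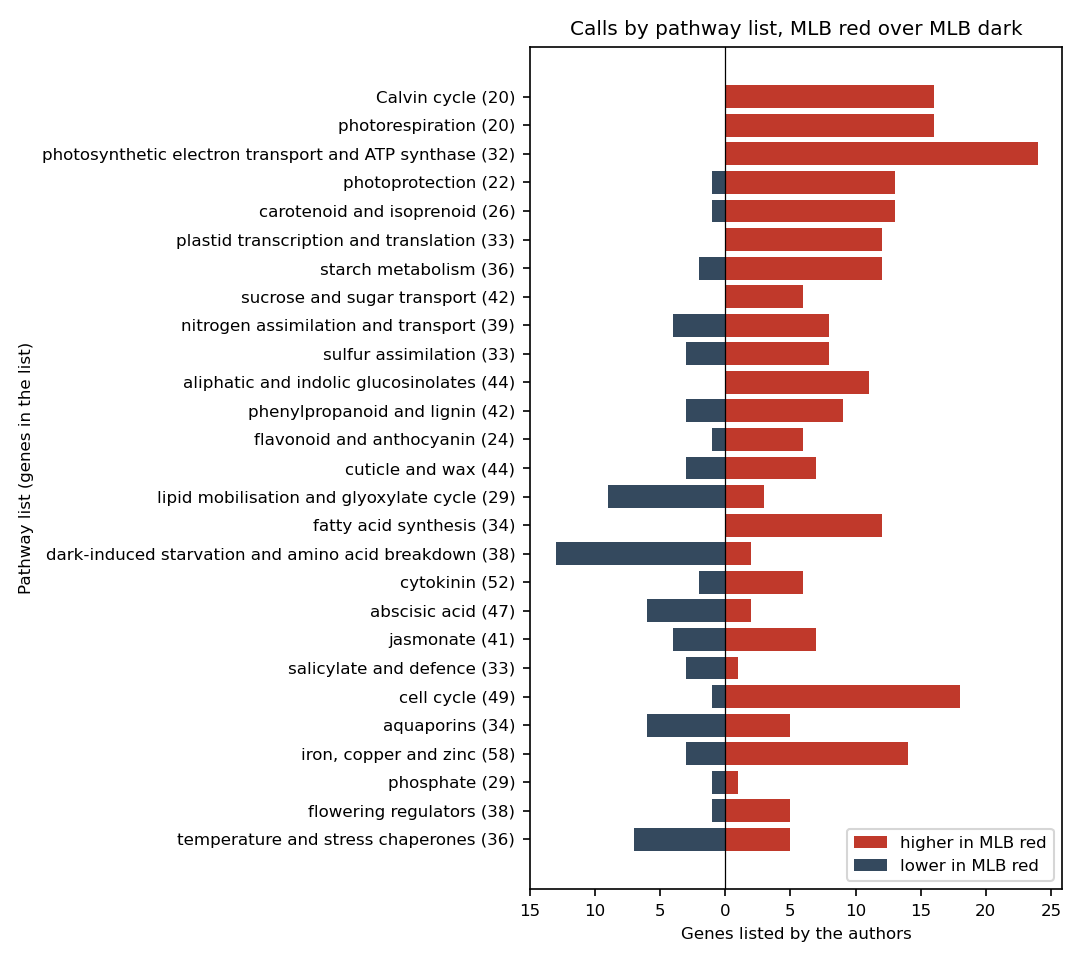
Number of genes listed by the authors in each of 27 pathway lists, with genes higher in MLB red to the right of 0 and genes lower in MLB red to the left, and the size of each list in brackets. The longest bars to the right are photosynthetic electron transport and ATP synthase (24 genes) and cell cycle (18), and the longest to the left is dark-induced starvation and amino acid breakdown (13).

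The promoters below show the sequence near the start of 1 gene in each of 4 groups described later, chosen as the member with the largest change among those that hold the motif shown. Each runs 5′ to 3′ over the 250 bases before the annotated start on the gene's own strand, in TAIR10.1 (RefSeq annotation), with motif matches in capitals. PSAH2 encodes a photosystem I subunit, and its capitals mark 2 G-boxes (CACGTG) and 1 I-box (GATAAG, here as its reverse complement CTTATC), on chr1:19454548-19454797, plus strand. RCA encodes Rubisco activase, and its capitals mark an I-box on chr2:16573693-16573942, minus strand. KNOLLE encodes the syntaxin of the dividing cell's new wall, and its capitals mark the core of the mitosis-specific activator (MSA) element (CAACGG) on chr1:2711001-2711250, minus strand. PCK1 encodes the phosphoenolpyruvate carboxykinase that turns seed oil carbon into sugar, and its capitals mark an I-box, again as its reverse complement, on chr4:17806706-17806955, minus strand.
PSAH2: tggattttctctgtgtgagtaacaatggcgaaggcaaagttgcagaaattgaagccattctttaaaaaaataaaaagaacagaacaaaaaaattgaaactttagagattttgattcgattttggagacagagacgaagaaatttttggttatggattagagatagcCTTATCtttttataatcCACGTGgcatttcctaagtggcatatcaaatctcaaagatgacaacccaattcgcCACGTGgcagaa
RCA: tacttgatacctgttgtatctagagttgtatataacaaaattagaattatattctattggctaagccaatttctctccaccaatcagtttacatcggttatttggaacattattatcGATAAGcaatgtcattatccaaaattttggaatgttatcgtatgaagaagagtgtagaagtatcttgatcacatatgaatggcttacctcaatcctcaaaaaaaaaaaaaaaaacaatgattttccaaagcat
KNOLLE: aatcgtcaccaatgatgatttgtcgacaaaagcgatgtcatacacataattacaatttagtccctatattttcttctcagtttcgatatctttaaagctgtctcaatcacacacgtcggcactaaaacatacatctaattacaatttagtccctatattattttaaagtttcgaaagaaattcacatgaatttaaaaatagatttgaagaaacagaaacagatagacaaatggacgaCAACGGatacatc
PCK1: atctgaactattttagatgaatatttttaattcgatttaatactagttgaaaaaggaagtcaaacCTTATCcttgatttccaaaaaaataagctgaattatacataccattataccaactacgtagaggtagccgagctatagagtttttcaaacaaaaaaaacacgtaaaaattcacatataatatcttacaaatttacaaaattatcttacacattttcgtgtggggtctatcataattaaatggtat
The G-boxes of PSAH2 begin 67 and 12 bases before the annotated start and its I-box 84 bases before it. The match in RCA begins 133 bases before the start, that in KNOLLE 13 and that in PCK1 185. In the authors' deposited table PSAH2 stood at 4.25, RCA at 4.47, KNOLLE at 2.12 and PCK1 at -2.42. A match is a run of letters and does not show that a factor binds there.

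All listed carbon fixation genes of the chloroplast rose. Of the 20 genes listed for the Calvin cycle, which fixes carbon dioxide, 16 were higher in MLB red, none was lower and 4 were not listed. Their median was 2.57 in the authors' deposited table, above the 1.28 of all listed genes. RCA, which frees Rubisco of inhibitors, led with 4.47 in the authors' deposited table (22.1-fold, FDR 1.49e-117, chromosome 2, 16570746 to 16573692). It was followed there by the glyceraldehyde-3-phosphate dehydrogenase subunit gene GAPA-2 (4.12) and the aldolase gene FBA1 (3.94), and GAPB stood at 3.04 in the authors' deposited table. Rubisco small subunit genes, 4 of them listed, ranged from 1.68 for RBCS2B to 2.85 for RBCS3B in the authors' deposited table. RBCS copies are near-identical and can share reads, so the value of 1 copy is uncertain, and GAPA overlaps another annotated locus.

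Photorespiration salvages the product that Rubisco makes with oxygen, and its genes rose as well. Here 16 of 20 genes were higher and none lower, with a median of 2.74 in the authors' deposited table. The largest values were 3.72 for the peroxisomal aminotransferase gene GGT1, 3.56 for the mitochondrial serine hydroxymethyltransferase gene SHM1, 3.41 for the hydroxypyruvate reductase gene HPR and 3.27 for the glycine decarboxylase gene GLDP1, all from the authors' deposited table. The set spans chloroplast, peroxisome and mitochondrion. Catalase 2 (CAT2, AT4G35090), the peroxisomal enzyme that removes hydrogen peroxide, had the smallest rise of the set, at 1.03 in the authors' deposited table.

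Electron carriers and the ATP synthase made up the list with the most calls. Of 32 genes 24 were higher and none lower, with a median of 2.72 in the authors' deposited table. Genes of cyclic electron flow were among the largest rises, with 3.60 for NDF1, a subunit of the chloroplast NDH complex, and 3.33 for PGRL1A, of the antimycin-sensitive route, in the authors' deposited table. The authors' deposited table gave 3.31 for DRT112 and 3.18 for PETE1, which encode the plastocyanin that carries electrons to photosystem I, and 3.22 for the NDH subunit gene PQL2. The same list holds the ATP synthase genes ATPD (3.20) and ATPC1 (2.65) and the state-transition kinase gene STN7 (3.19) in the authors' deposited table. By product name, 72 annotated genes belong to the thylakoid, and 62 of them (86.1%) were higher and none was lower.

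The expression machinery of the plastid rose less. In plastid transcription and translation 12 of 33 genes were higher and none lower, with a median of 1.22 in the authors' deposited table, below that of all listed genes. The sigma factors, which direct the plastid RNA polymerase to its promoters, gave SIG5 at 3.57, SIG1 at 1.92, SIG3 at 1.19 and SIG2 at 1.17 in the authors' deposited table. SIG5 was thus 1 large change among modest ones. Pentatricopeptide repeat proteins, which process organelle RNA, numbered 279 annotated members, and 17 were higher and 1 lower, or 6.45% listed against 13.0% of all protein-coding genes. Ribosomal protein genes gave 19 higher and 1 lower of 344 (5.81%), with the plastid ribosome gene PSRP3 (1.95 in the authors' deposited table) on top. Both families therefore had rises in nearly all their calls but few calls for their size. The 4 listed genes of the chloroplast genome were all higher, at 1.22 to 1.30 in the authors' deposited table; they sit in pairs of copies within the inverted repeat, so their reads cannot be assigned to 1 copy.

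Listed genes that protect the photosystems rose, with an exception. In the photoprotection list 13 of 22 genes were higher and 1 lower, with a median of 2.26 in the authors' deposited table. The xanthophyll cycle gene NPQ2 (3.11, also called ABA1), the tocopherol cyclase gene VTE1 (2.94) and the light-harvesting-like gene OHP1 (2.90) led in the authors' deposited table. ELIP1, an early light-induced protein that binds free pigment, was lower in MLB red, at -1.28 in the authors' deposited table. The carotenoid and isoprenoid list gave 13 higher and 1 lower of 26, with CCD4, a carotenoid cleavage dioxygenase, at 3.16 and the hydroxylase genes BCH2 and LUT5 at 2.91 and 2.78 in the authors' deposited table. PSY, the entry enzyme of carotenoid synthesis, stood at 2.24 there, and the strigolactone gene CCD8 was the single fall, at -1.79 in the authors' deposited table. Another strigolactone gene, D27, was higher, at 7.37 in the authors' deposited table.

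Fatty acid synthesis, which in plants runs in the plastid, gave 12 higher and none lower of 34 genes, with a median of 1.26 in the authors' deposited table. The desaturase gene FAD5, of the chloroplast's own galactolipid, had 3.40, the acyl carrier protein gene ACP4 2.90, the desaturase gene FAD8 2.02 and the acyl-CoA synthetase gene LACS9 1.72 in the authors' deposited table. Most of the other rises lay near the fold limit.

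**Figure D2:**
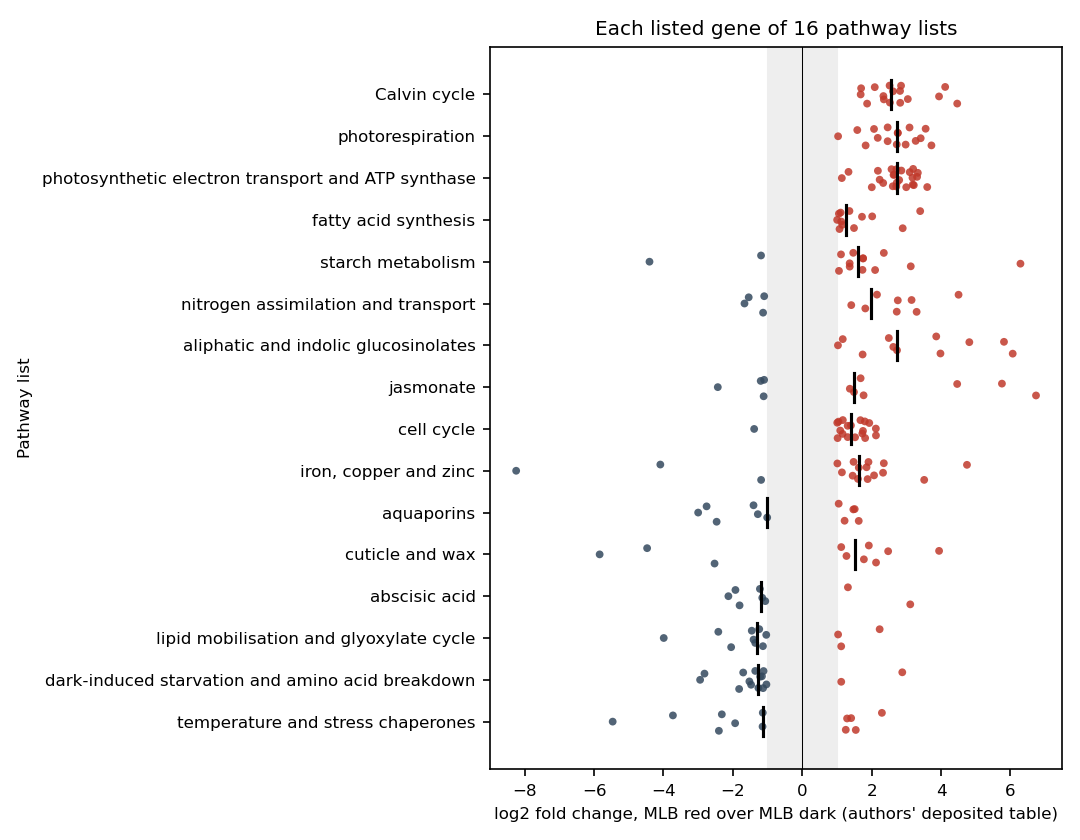
Log2 fold change of MLB red over MLB dark, from the authors' deposited table, for each listed gene of 16 pathway lists; the short black bar is the median and the grey band holds values the authors did not list. Calvin cycle, photorespiration and electron transport genes all sit above 1, while lipid mobilisation and starvation genes sit mostly below -1.

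Most listed starch genes rose, in both synthesis and breakdown. Of 36 genes 12 were higher and 2 lower, with a median of 1.60 in the authors' deposited table. The beta-amylase gene BAM3, the main maltose-releasing enzyme of leaf starch at night, had 6.29 in the authors' deposited table (78.2-fold, chromosome 4, 9604962 to 9607402). On the synthesis side the authors' deposited table gave 3.13 for the granule-bound synthase gene GBSS1. The exporter of triose phosphates, TPT, stood at 2.35 and the importer of glucose-6-phosphate, GPT2, at -4.40 in the authors' deposited table. The pair of plastid envelope transporters thus went opposite ways. The catalytically inactive amylase homologue BAM4 was the other fall, at -1.19 in the authors' deposited table. In sucrose and sugar transport 6 of 42 genes were listed, a share of 14.3% close to the 13.0% background, and all 6 were higher. They were led by the trehalose phosphate genes TPS1 (3.02) and TPPA (2.71) and the sugar transporter genes SWEET2 (2.00) and SWEET1 (1.97) in the authors' deposited table.

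The listed enzymes of nitrate and ammonium assimilation rose, and the falls were transporter, asparagine synthetase and dehydrogenase genes. Of 39 genes 8 were higher and 4 lower. ASN2 and ASN1 encode asparagine synthetases and moved in opposite directions, to 4.50 (22.7-fold) and -1.13 (2.19-fold lower) in the authors' deposited table. The ammonium transporter gene AMT1;2 (3.30), the nitrate reductase gene NIA2 (3.15) and the plastid glutamine synthetase gene GS2 (2.75) rose in the authors' deposited table. The falls there were the nitrate transporter genes NRT1.8 (-1.66) and NRT2.6 (-1.54), ASN1 and the glutamate dehydrogenase gene GDH1 (-1.10), from the authors' deposited table. ASN1 is also a member of the starvation list.

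Sulfur assimilation gave 8 higher and 3 lower of 33, with a median of 1.05 in the authors' deposited table. LSU1 and LSU2, small proteins known from low sulfur, had 3.48 and 2.79, and the adenosine phosphosulfate reductase gene APR2 had 2.14 in the authors' deposited table. The sulfate transporter genes were split, with SULTR3;4 at 1.75 and SULTR3;5 and SULTR3;1 at -1.28 and -1.14 in the authors' deposited table.

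Glucosinolates are the sulfur-rich defence compounds of the cabbage family. Of 44 genes of their synthesis and activation 11 were higher and none lower, with a median of 2.73 in the authors' deposited table. The largest were the side-chain oxygenase gene FMOGS-OX2 at 6.07 (67.0-fold) and the modifier of breakdown ESM1 at 5.81 (56.3-fold) in the authors' deposited table. MAM1, the chain-elongating synthase, had 4.82 and MYB28, the regulator of the aliphatic branch, 3.98 in the authors' deposited table. The aliphatic branch was thus represented from regulator to chain elongation, and the indolic hydroxylases CYP81F4 (2.49) and CYP81F3 (1.03) and the myrosinase gene TGG1 (1.74) rose too in the authors' deposited table.

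Phenylpropanoid and lignin genes gave 9 higher and 3 lower of 42. FAH1, the ferulate 5-hydroxylase that leads to sinapate esters and syringyl lignin, had 4.74, the coumarate ligase gene 4CL3 had 2.65 and the alcohol dehydrogenase gene CAD4 had 1.57 in the authors' deposited table. All 3 falls were genes of the Casparian strip, the lignin ring of the root endodermis: CASP5 (-1.33), ESB1 (-1.28) and CASP4 (-1.17) in the authors' deposited table. The endodermis markers CASP1, CASP2, SCR and SHR were not listed. Flavonoid genes gave 6 higher and 1 lower of 24, led by the hydroxylase gene F3H (3.54), the glucosyltransferase gene UGT78D2 (2.38) and the flavonol synthase gene FLS1 (2.36), and the fall was the regulator gene MYB111 at -1.13 in the authors' deposited table.

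Genes that turn seed oil into sugar were more often lower than higher among those listed. In lipid mobilisation and the glyoxylate cycle 9 of 29 genes were lower, 3 higher and 17 not listed, with a median of -1.30 in the authors' deposited table. Both enzymes found only in the glyoxylate cycle fell, isocitrate lyase (ICL) to -3.99 (15.9-fold lower, FDR 5.68e-87) and malate synthase (MLS) to -2.05 in the authors' deposited table. PCK1 (-2.42) and the catalase gene CAT3 (-1.45) followed there, and the beta-oxidation genes ACX1 (-1.40), MFP2 (-1.24) and ACX2 (-1.04) were lower in the authors' deposited table. The 3 rises were PMDH2, a peroxisomal malate dehydrogenase (2.23), ACN1 (1.12) and CAT2 (1.03) in the authors' deposited table. CAT2 is shared with photorespiration, which runs in the same organelle, and the catalase genes CAT2 and CAT3 went opposite ways.

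Starvation genes, known as those that rise when a plant is kept dark and short of sugar, gave 13 lower and 2 higher of 38, with a median of -1.26 in the authors' deposited table. Branched-chain amino acid breakdown was covered at several steps, with the aminotransferase gene BCAT2 at -2.82 (7.05-fold lower), IVD1 at -1.70, MCCA at -1.47, DIN3 at -1.26 and MCCB at -1.03 in the authors' deposited table. The EXORDIUM-like gene EXL4 (-2.94), the beta-glucosidase gene DIN2 (-1.82) and EXL2 (-1.52) were lower as well in the authors' deposited table. The senescence-associated gene SAG13 (2.88) and the tyrosine aminotransferase-like gene TAT7 (1.12) were the rises in the authors' deposited table. Amino acid transporters, a family of 52, gave 3 falls and no rise, a listed share of 5.77% under the 13.0% background. They were AAP3 (-2.14), CAT6 (-2.13) and the cationic amino acid transporter CAT2 (AT1G58030, -1.50) in the authors' deposited table; that gene shares only its symbol with catalase 2.

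Oleosin and cupin genes, a family that holds seed oil-body and storage proteins as well as germin-like proteins, had mostly falls. Of 54 annotated oleosin and cupin genes 11 were lower and 4 higher, with a median of -3.05 in the authors' deposited table. Besides the storage globulin genes CRA1 (-5.85) and PAP85 (-5.17), a run of germin-like cupin genes on chromosome 5 was lower: AT5G39150 (-5.50), AT5G39180 (-5.46), AT5G39120 (-4.89) and AT5G39110 (-4.86) in the authors' deposited table. AT5G39130, between them, was lower by little more than the fold limit. These are tandem copies whose reads may be shared.

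Gene families were defined by product names in the annotation, and 59 were counted. The plot of family shares shows the thylakoid family far above the rest and F-box genes at the bottom, with 7 higher and 3 lower of 653 (1.53%).

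**Figure D3:**
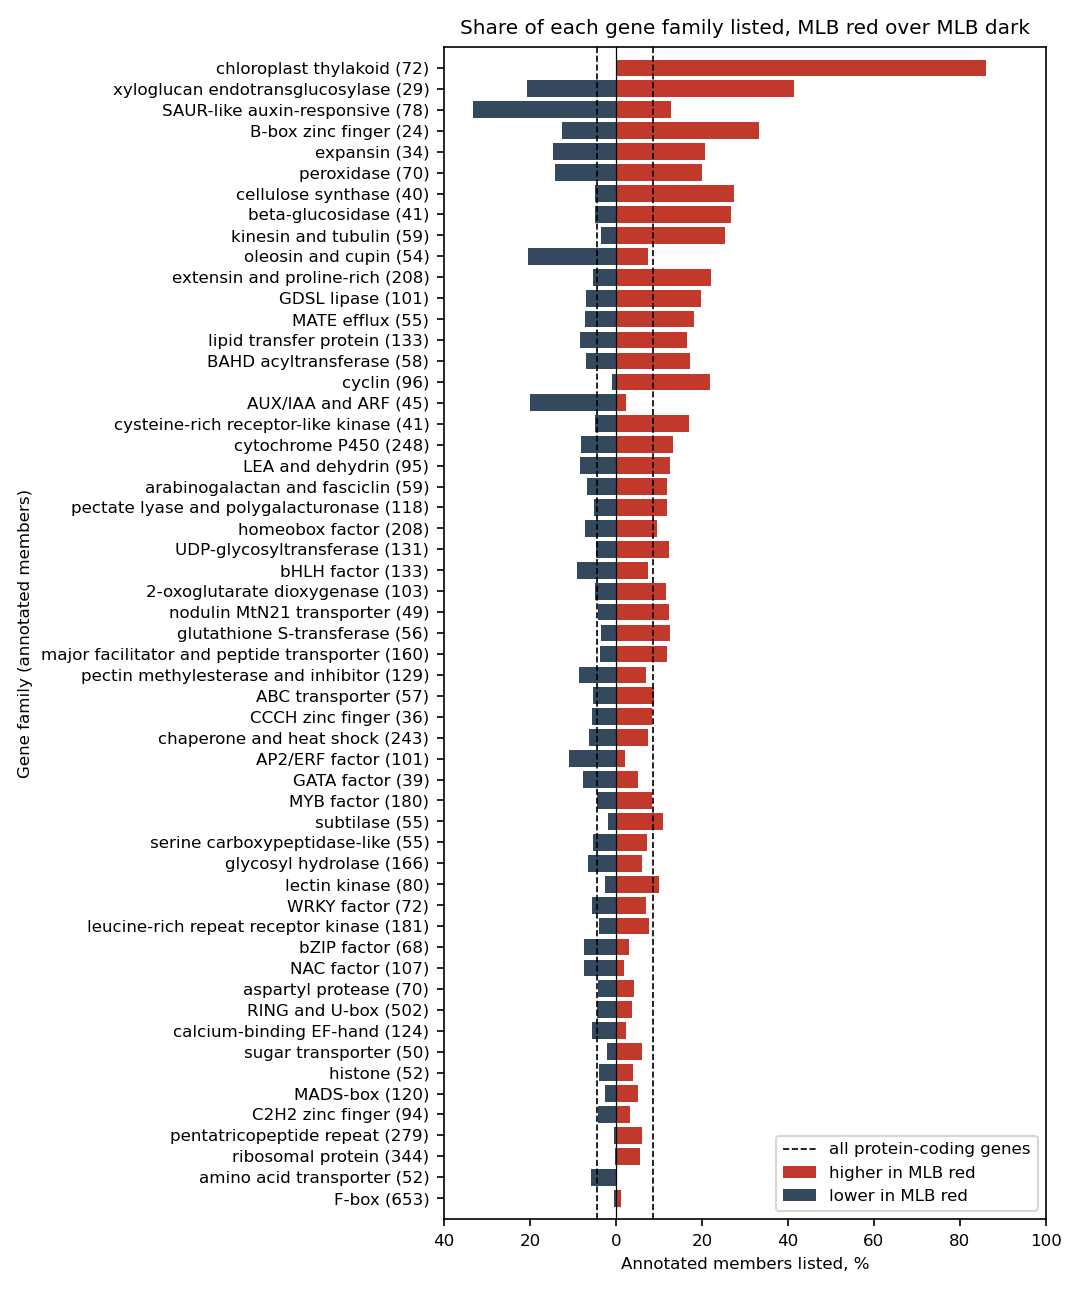
Share of the annotated members of each gene family that the authors listed, with genes higher in MLB red to the right of 0 and genes lower in MLB red to the left, for families of at least 15 annotated members with at least 3 listed. The dashed lines are the shares of all annotated protein-coding genes (8.63% higher, 4.36% lower); the thylakoid, xyloglucan endotransglucosylase and SAUR-like families have the largest listed shares.

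Cell wall families moved in both directions, gene by gene. Xyloglucan endotransglucosylases (XTHs) cut and rejoin the tethers between cellulose fibres, and 18 of 29 (62.1%) were listed, 12 higher and 6 lower. XTH6 had the largest rise at 8.30 (314-fold) and XTH15 the largest fall at -4.74 (26.7-fold lower) in the authors' deposited table. Next came XTH25 (4.68) and XTH7 (3.93) among the rises and XTH30 (-2.16) and XTH19 (-1.81) among the falls in the authors' deposited table. Expansins, which loosen walls at low pH, gave 7 higher and 5 lower of 34, from EXPB3 at 2.71 to EXPA9 at -2.43 in the authors' deposited table. Peroxidases gave 14 higher and 10 lower of 70, from 3.85 for AT1G68850 to -4.20 for AT1G49570 in the authors' deposited table. In each of these 3 families the listed share exceeded the 13.0% background.

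Structural wall genes leaned towards rises. Cellulose synthase and related genes gave 11 higher and 2 lower of 40, led by CSLB04 (4.41), with CSLA02 (-1.68) at the other end in the authors' deposited table. Extensin and proline-rich genes gave 46 higher and 11 lower of 208, from AT3G16670 (6.96) to AT2G34700 (-3.11) in the authors' deposited table. Pectin methylesterases and their inhibitors gave 9 higher and 11 lower of 129, a listed share of 15.5%, from AT1G23205 (3.63) to ATPMEPCRD (-4.68) in the authors' deposited table. Glycosyl hydrolases gave 10 higher and 11 lower of 166 (12.7%), from BGLU1 (3.11) to the endoglucanase gene GH9B12 (-2.98) in the authors' deposited table. The share of these hydrolases was close to the background.

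Listed cell division genes were higher in MLB red with 1 exception. Of 49 cell cycle genes 18 were higher, 1 lower and 30 not listed, with a median of 1.40 in the authors' deposited table. The rises lay between 1.01 and 2.12 in the authors' deposited table. KNOLLE and the kinesin gene HIK, both of the new cell plate, had 2.12 each, CDC20.1, an activator of the anaphase-promoting complex, had 1.93, and the mitotic cyclin gene CYCB1;2 had 1.81 in the authors' deposited table. Listed genes of mitosis included 4 B-type cyclin-dependent kinase genes (CDKB1;1, CDKB1;2, CDKB2;1 and CDKB2;2) at 1.16 to 1.75 in the authors' deposited table. Of genes for DNA replication, MCM3 stood at 1.01 in the authors' deposited table, just inside the fold limit. SIM, an inhibitor that turns cells from division to endoreduplication, was the single fall, at -1.39 in the authors' deposited table. By family name, cyclins and their partners gave 21 higher and 1 lower of 96 (22.9%), and kinesins and tubulins 15 higher and 2 lower of 59 (28.8%). Histone genes gave 2 higher and 2 lower of 52 (7.69%). TUB1 was among the falls of kinesins and tubulins, at -1.58 in the authors' deposited table. CYCD3;1 (1.31 in the authors' deposited table), the cyclin of entry into division, overlaps another annotated locus.

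The cuticle list held rises and falls, and its cutin genes moved both ways. Of 44 genes 7 were higher, 3 lower and 34 not listed. The wax ester synthase gene WSD1 (-5.84, 57.3-fold lower) and the alkane synthesis gene CER1 (-4.47, 22.2-fold lower) had the largest changes, both falls, in the authors' deposited table, and the cutin hydroxylase gene CYP86A4 stood at -2.53 there. The rises were GPAT5, an acyltransferase of suberin (3.94), the cutin hydroxylase gene CYP77A6 (2.48), the epidermal regulator MYB16 (2.13) and the cutin synthase gene CUS1 (1.92) in the authors' deposited table. Lipid transfer proteins, several of which carry cuticle lipids, gave 22 higher and 11 lower of 133, from AT5G48490 (7.47) to AT4G22490 (-5.11) in the authors' deposited table. GDSL lipases gave 20 higher and 7 lower of 101, from ESM1 (5.81) to GLIP7 (-3.11) in the authors' deposited table.

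The small auxin-induced SAUR-like genes, many of which promote cell expansion, had 26 falls and 10 rises among 78 members (46.2% listed). Falls reached -4.72 for AT4G13790 and -3.73 for AT1G19830, and rises reached 3.32 for AT4G00880 and 2.95 for AT4G38840 in the authors' deposited table. Neighbouring copies could move oppositely. On chromosome 4, AT4G38840 (2.95) lies next to SAUR15 (-2.04) and near AT4G38825 (-1.57) in the authors' deposited table. On chromosome 2, AT2G21210 (2.36) and AT2G21220 (2.21) rose beside AT2G21200 (-1.18) in the authors' deposited table. In the SAUR19 group on chromosome 5 all listed members were lower, with SAUR22 at -2.71, SAUR19 at -1.96, SAUR23 at -1.82 and SAUR24 at -1.79 in the authors' deposited table. AUX/IAA repressors and ARF factors gave 9 lower and 1 higher of 45, with IAA20 at -4.49 and IAA28 at 1.40 in the authors' deposited table.

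**Figure D4:**
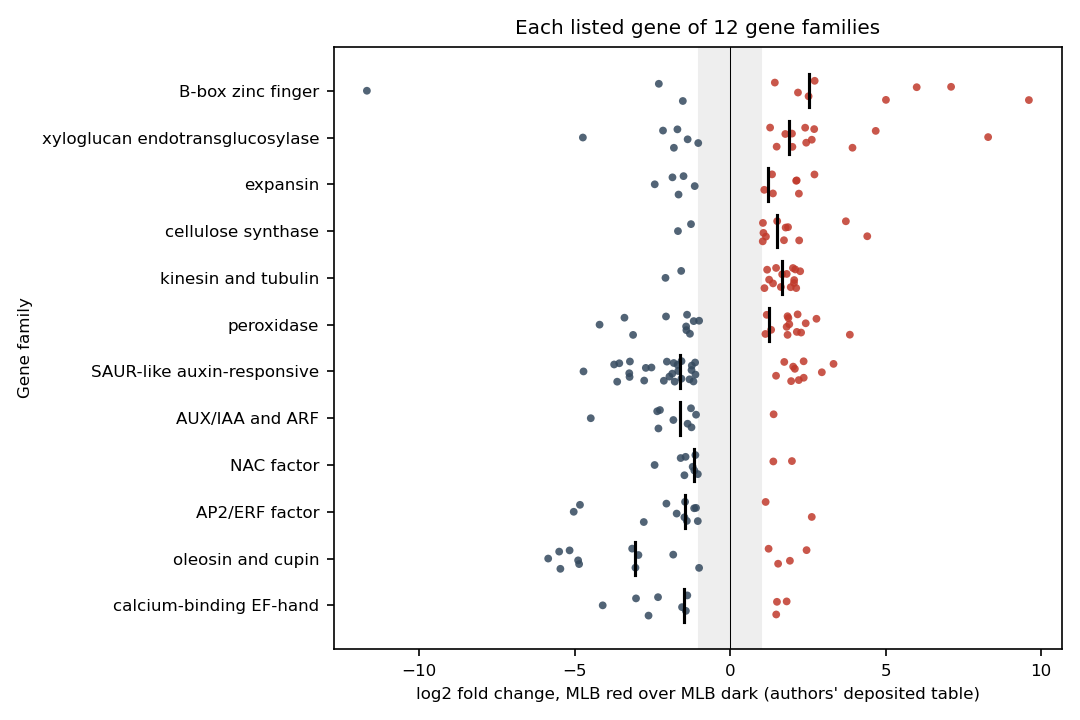
Log2 fold change of MLB red over MLB dark, from the authors' deposited table, for each listed gene of 12 gene families; the short black bar is the median and the grey band holds values the authors did not list. B-box genes span from -11.69 (bbx23) to 9.61 (BBX16), xyloglucan endotransglucosylases from -4.74 (XTH15) to 8.30 (XTH6), and AUX/IAA and ARF genes lie below -1 with 1 exception.

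Jasmonate synthesis genes had some of the largest rises among the hormone lists. Of 41 genes 7 were higher and 4 lower. LOX2, the chloroplast lipoxygenase that starts the pathway, had 6.74 (107-fold, FDR 3.46e-108), the allene oxide cyclase gene AOC2 had 5.76 (54.0-fold) and the response gene VSP2 had 4.47 in the authors' deposited table. Copies within each enzyme family differed in sign. LOX3 (1.77) rose and LOX1 (-1.20) and LOX4 (-1.10) fell, and AOC1 (1.49) rose and AOC4 (-1.11) fell in the authors' deposited table. ST2A, a sulfotransferase that inactivates hydroxyjasmonate, had the largest fall at -2.43 in the authors' deposited table. AOC copies are similar in sequence and may share reads.

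Abscisic acid genes leaned towards falls, with 6 lower and 2 higher of 47, a listed share of 17.0%. The seed regulators ABI3 (-2.13) and ABI5 (-1.93), the catabolic hydroxylase gene CYP707A3 (-1.81) and the repressor gene AFP3 (-1.22) led in the authors' deposited table. Synthesis gene ABA1 stood at 3.11 there, but its product also serves the xanthophyll cycle, and the phosphatase gene HAI1 stood at 1.32 in the authors' deposited table. Cytokinin genes gave 6 higher and 2 lower of 52 (15.4%), from AHP4 (2.56) and CKX7 (1.75) to CRF6 (-2.65) and LOG5 (-1.58) in the authors' deposited table. The salicylate and defence list had 4 of 33 genes listed (12.1%), at the level of the background. They were DIR1, a lipid transfer protein of systemic immunity, at 3.89, its relative AZI1 at -2.99, the flagellin receptor gene FLS2 at -2.25 and CBP60G at -1.31 in the authors' deposited table.

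Resistance genes of the TIR-NBS-LRR class, intracellular immune receptors, were looked up after a run of them was seen among neighbouring genes. Of 91 annotated members 23 were higher and 2 lower (27.5% listed). The largest values were 6.54 for AT5G46490, 6.06 for AT4G19530, 5.01 for RPP4 (32.2-fold), 4.84 for WRR4 and 4.14 for AT5G46270 in the authors' deposited table. RPP4, AT4G16857 (1.48) and SNC1 (2.43) lie in 1 stretch of chromosome 4, from 9482429 to 9505972, together with the leucine-rich repeat gene AT4G16880 (8.42) in the authors' deposited table. The falls were AT5G38340 (-1.53) and AT4G23510 (-1.27) in the authors' deposited table. Members of such clusters are similar in sequence and can share reads. Cysteine-rich receptor-like kinases gave 7 higher and 2 lower of 41, with CRK21 at 4.49 and CRK28 at -1.12 in the authors' deposited table; CRK28 overlaps its neighbour CRK29.

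Transcription factor families differed in direction. B-box zinc finger factors, many of which act in light signalling, had 8 rises and 3 falls of 24 (45.8% listed). BBX16 had 9.61, BBX32 7.10, BBX30 6.00 and BBX31 5.01, against -11.69 for the gene annotated bbx23 and -2.30 for BBX17 in the authors' deposited table. AP2/ERF factors gave 11 falls and 2 rises of 101, from -5.03 for AT4G28140 to 2.62 for the flowering repressor gene SNZ in the authors' deposited table. NAC factors gave 8 falls and 2 rises of 107 (9.35%), from NAC3 at -2.43 to NAC015 at 1.99 in the authors' deposited table. Listed shares of the AP2/ERF and NAC families were at or under the background, so these families stood out by direction and not by number. Homeobox factors gave 20 rises and 15 falls of 208 (16.8%), from BLH6 (3.57) to HB53 (-4.18) in the authors' deposited table. MYB factors gave 15 rises and 8 falls of 180 (12.8%), from MYB28 (3.98) to MYB10 (-4.51) in the authors' deposited table. For bHLH factors there were 10 rises and 12 falls of 133 (16.5%), from AT3G61950 (3.33) to HEC2 (-4.22) in the authors' deposited table. Calcium-binding EF-hand proteins, which are sensors and not factors, gave 7 falls and 3 rises of 124 (8.06%, under the background). They ranged from AT1G54530 (1.82) to AT2G34020 (-4.10) in the authors' deposited table.

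Growth-regulating factors, which promote leaf cell proliferation, were looked up after GRF7 was seen among the largest falls. Of 9 annotated members 4 were lower and 1 higher (55.6% listed). GRF7 had -7.64, GRF8 -4.79, GRF2 -2.05 and GRF6 -1.72, and GRF4 had 1.05 in the authors' deposited table. These falls stood beside the rises of cell division genes above. Photoreceptor genes were likewise looked up afterwards: the far-red receptor gene PHYA (-1.70, 3.24-fold lower) and its nuclear import factor FHY1 (AT2G37678, -2.08) were lower, and CRY3 (2.61) and PHOT2 (1.46) were higher in the authors' deposited table.

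Flowering regulators gave 5 higher and 1 lower of 38 (15.8%). SOC1, an integrator that promotes flowering, had 2.84, the squamosa-promoter-binding factor genes SPL9 and SPL15 had 2.71 and 1.73, and SNZ had 2.62 in the authors' deposited table. The floral repressor gene MAF5 was lower at -1.24 and the repressor gene SVP higher at 1.47 in the authors' deposited table, so the list held promoters and repressors among its rises.

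MicroRNA genes bear on SPL factors, since miR156 and miR157 target their transcripts, and 23 annotated miRNA genes were listed, 9 higher and 14 lower. Mature sequences of the members described here follow, from the TAIR10.1 annotation (RefSeq), with the seed, bases 2 to 8, in capitals. They are shown because plant miRNAs pair with their targets along most of their length.
ath-miR156a-5p: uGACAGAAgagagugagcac
ath-miR156c-5p: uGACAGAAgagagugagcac
ath-miR156f-5p: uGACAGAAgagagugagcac
ath-miR157c-5p: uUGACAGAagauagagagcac
ath-miR163: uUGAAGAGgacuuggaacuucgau
ath-miR158a-3p: uCCCAAAUguagacaaagca
ath-miR390b-5p: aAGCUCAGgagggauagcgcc
The 3 miR156 sequences are the same and 20 bases long. The 21 bases of miR157c-5p begin with an additional u before the same first bases, so its seed is that of miR156 shifted by a base. Listed MIR156 genes and the only listed MIR157 gene went opposite ways. MIR156f (-3.21), MIR156a (-1.22) and MIR156c (-1.16) were lower and MIR157c (4.82) was higher in the authors' deposited table. Any other genes of these families were not listed. MIR163 rose to 5.48 (44.5-fold), and MIR390b (-4.28) and MIR158a (-3.74) had the largest falls among miRNA genes in the authors' deposited table. These values count reads on the miRNA genes in an RNA library and are not levels of the mature miRNA, and every one of the 23 overlaps another locus identifier in the deposited table.

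The best ungapped match to the reverse complement of each miRNA was sought in the annotated transcripts of targets known from the literature, with G:U pairs counted as mismatches. Capitals below mark bases complementary to the miRNA. The SPL9 site is on chr2:17589066-17589085, plus strand, and the PXMT1 site on chr1:24874307-24874330, minus strand, both in a coding exon.
SPL9: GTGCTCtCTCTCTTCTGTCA
PXMT1: catcgAGTTCCAAGTCCTCTTCAA
The SPL9 site has 1 mismatch to miR156a-5p over 20 bases, and SPL15 and SPL11 hold the same letters. SPL9 (2.71), SPL15 (1.73) and SPL11 (1.88) were higher in MLB red in the authors' deposited table. They were the only listed members of 17 annotated SPL genes, a family counted after these values were seen, and the other 14 were not listed. PXMT1, a methyltransferase gene and known target of miR163, has 5 mismatches to it over 24 bases and was lower, at -2.46 (FDR 1.6e-11) in the authors' deposited table. Whether these miRNAs changed the levels of these transcripts was not tested.

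Other noncoding genes were listed too. Long noncoding RNA genes gave 121 higher and 75 lower of 3480 annotated (5.63%), a smaller listed share than the 13.0% of protein-coding genes. Antisense RNA genes gave 11 higher and 5 lower of 79 (20.3%). Small nucleolar RNA genes gave 17 lower and 4 higher of 287 (7.32%), and the miRNA genes above were 7.06% of 326 annotated. How strand was counted is not given in the sources used here, so reads of an antisense gene and its partner cannot be told apart.

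Metal genes showed the largest single fall of any pathway list. Of 58 genes for iron, copper and zinc 14 were higher and 3 lower, with a median of 1.63 in the authors' deposited table. The copper transporter gene COPT3 had -8.25 (303-fold lower, FDR 4.71e-19) and the vacuolar iron importer gene VIT1 -4.09 in the authors' deposited table. The ferric reductases FRO6 (4.75) and FRO7 (3.51), of leaf cells and chloroplasts, had the largest rises there, followed by the nicotianamine synthase gene NAS4 (2.35) and the root iron transporter gene IRT2 (2.33) in the authors' deposited table. Iron storage in ferritin, FER1, was lower at -1.19 in the authors' deposited table. Phosphate genes gave 1 rise and 1 fall of 29 (6.90%), a listed share under the 13.0% background.

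Aquaporins, the water channels, gave 5 higher and 6 lower of 34. The plasma membrane channel gene PIP2;4 had the most negative value, followed by the seed vacuole channel gene BETA-TIP (-2.76), TIP2;3 (-2.47) and TIP2;2 (-1.40) in the authors' deposited table. The rises were smaller, from 1.05 for SIP1;2 to 1.63 for PIP2;8 in the authors' deposited table. All 3 changes beyond a log2 value of 2 were therefore falls. MATE efflux transporters gave 10 higher and 4 lower of 55, from AT5G44050 (6.02) to AT2G04050 (-3.87) in the authors' deposited table, and ABC transporters 5 higher and 3 lower of 57, from ABCG6 (5.43), which exports suberin precursors, to ABCG15 (-3.82) in the authors' deposited table.

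Stress genes split by type. In the list of temperature and stress chaperones 7 of 36 genes were lower, all heat shock proteins or the heat-induced coactivator gene MBF1C, and 5 were higher, all known from cold or dehydration. The small heat shock protein genes HSP22.0 (-5.46, 44.1-fold lower), HSP23.6 (-3.73), HSP17.6II (-2.40) and HSP17.6 (-2.32) led the falls, and COR413-PM1 (1.54), KIN1 (1.41) and LTI30 (1.29) were among the rises in the authors' deposited table. The majority of the list depended on the FDR limit, since 55.6% of 9 members were higher at an FDR below 0.00001, against 41.7% of 12 at the authors' limit. By product name, the wider family of chaperones and heat shock genes had 18 higher and 15 lower of 243 (13.6%), near the background. Small heat shock genes are also expressed in maturing seeds. Both groups had the same temperature in the labels, and the cause of these falls was not tested.

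Specialised metabolism was covered broadly. Cytochrome P450 genes gave 33 higher and 20 lower of 248, and the family holds both CYP71A22 (11.01) and CYP96A5 (-11.74), its largest rise and fall in the authors' deposited table. UDP-glycosyltransferases gave 16 higher and 6 lower of 131 (16.8%), beta-glucosidases 11 higher and 2 lower of 41 (31.7%), and BAHD acyltransferases 10 higher and 4 lower of 58 (24.1%). BGLU33 (5.92) and AT1G78990 (6.80) led the last 2 families in the authors' deposited table. Thionins, small antimicrobial peptides, were looked up after AT1G66100 (10.81) and THI2.2 (9.29) were seen among the 20 largest rises of the authors' deposited table. These were the only listed genes of 59 annotated thionins (3.39%, against 13.0% of all protein-coding genes); AT1G66100 overlaps another annotated locus. Such ratios have no level beside them and can rest on few reads in darkness.

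The largest rises not named above included AT1G22690, of the gibberellin-regulated family (13.62), the uncharacterized AT2G15020 (12.99) and AT3G28270 (11.59) in the authors' deposited table. The kinase gene CIPK20 (11.44) and the RING gene AT3G11110 (10.76) were among them too in the authors' deposited table. Further genes among the 20 largest rises were the sugar phosphate gene PGL5 (10.20), the microtubule-associated gene AT5G62240 (9.78) and the phototropism-related gene DOT3 (9.47) in the authors' deposited table. Among the 20 largest falls were the C2H2 factor gene LATE (-6.04), the nitrate-responsive MADS-box gene AGL44 (-5.40) and the potassium channel gene KT5 (-5.28) in the authors' deposited table. They belong to none of the pathways above.

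Cell type markers were looked up among the listed genes of these whole seedlings. Stomatal lineage markers were listed for 5 of 10, all higher, with HIC (2.62), SPCH (1.78), EPF2 (1.67), TMM (1.12) and the guard cell regulator FAMA in the authors' deposited table. Root hair markers were listed for 4 of 5, all higher, and mesophyll markers for 3 of 3, all higher. The mesophyll markers LHCB1.1 (7.45), CAB3 (7.80) and RBCS1A (1.87) in the authors' deposited table are photosynthesis genes. For these, more mesophyll cells and more RNA per cell in light cannot be told apart. Of the epidermis markers ATML1, PDF1, PDF2, CER5, GL2 and FDH none was listed, so none passed the fold and FDR limits, and no marker of trichomes or of the root tip was listed. Of 9 markers of the endodermis and vasculature, the xylem gene XCP1 was listed, at 1.08 in the authors' deposited table. Their part in the results was not tested, and no level could be given for an unlisted marker.

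Listed genes were spread over the 5 chromosomes, with 11.8% of protein-coding genes listed on chromosome 3, the lowest share, 13.5% on chromosome 1 and slightly more on chromosome 4, the highest. Of 27439 pairs of adjacent protein-coding genes 669 had both members listed, and 72.8% of these moved in 1 direction, 361 pairs higher and 126 lower. Since 65.3% of all listed genes were higher, many pairs and runs would share a direction, mostly upwards, without any link between neighbours. The share expected from that was not computed. There were 69 runs of at least 3 adjacent genes in 1 direction, 58 higher and 11 lower, and the longest held 4 genes. In 7 of them all members carried the same product name, which in 2 was only "uncharacterized protein". Examples are 4 short-chain dehydrogenase-like genes from AT2G29290 (2.29) to AT2G29320 (3.29) and the amino acid exporters UMAMIT46 (2.54), UMAMIT47 (4.30) and UMAMIT45 (1.17) in the authors' deposited table. Runs of similar genes may share reads.

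Promoters were searched for 10 motifs from 250 bases before to 50 bases after the annotated start, on both strands, for 2368 higher genes, 1196 lower genes and all 27443 protein-coding genes with a full window. The motifs were the G-box (CACGTG), I-box (GATAAG), evening element (AAAATATCT), telo-box (AAACCCTA), site II (TGGGCC), RY element (CATGCATG), auxin response element (TGTCGG), GCC-box (GCCGCC), MSA core (CAACGG) and CCAAT box (CCAAT). No motif holds another within its letters. A G-box was found in 10.9% of higher, 9.95% of lower and 7.68% of all promoters, and an I-box in 18.6% of higher, 18.6% of lower and 14.6% of all. Site II, a motif of ribosomal and cycling genes, was in 13.8% of higher, 9.20% of lower and 15.5% of all promoters. The MSA core was in 9.54% of higher, 6.69% of lower and 6.56% of all promoters. The RY element, known from seed genes, was in 0.93% of higher, 1.67% of lower and 0.88% of all promoters, and the CCAAT box in 54.3%, 48.4% and 51.6%. The telo-box was in 3.67% of higher, 3.09% of lower and 6.22% of all.

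**Figure D5:**
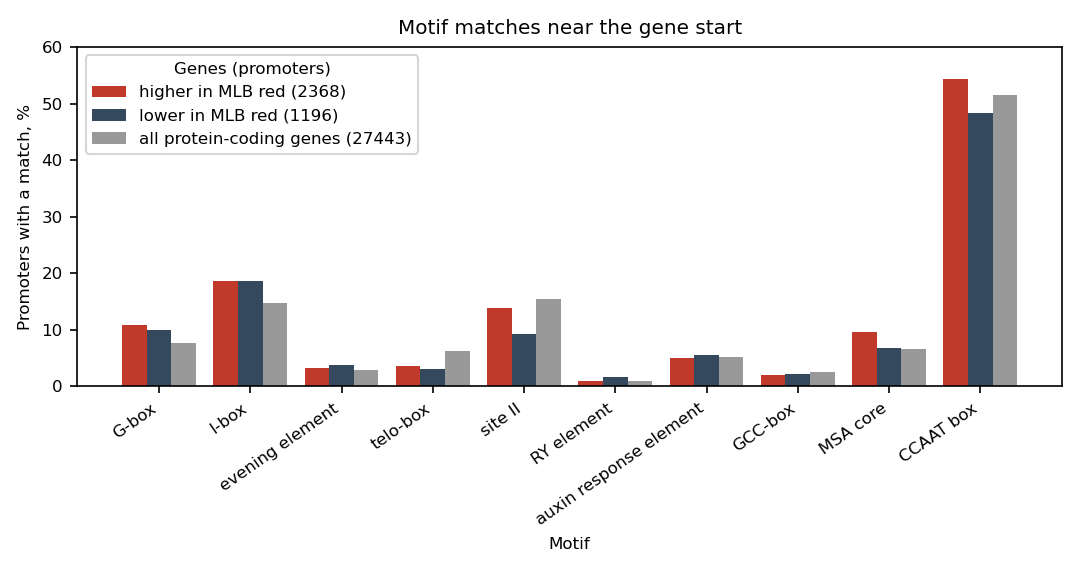
Share of promoters with at least 1 match to each of 10 motifs, for genes higher in MLB red, genes lower in MLB red and all protein-coding genes; the number of promoters is in brackets. G-box and I-box shares are higher in both listed groups than in all genes, and telo-box shares are lower in both.

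Shares within single groups were as follows. In all promoters a G-box was in 7.68%, an I-box in 14.6% and site II in 15.5%. Before the start, a G-box was in 6.49% and an I-box in 12.3% of all. A G-box was in 33.9% and an I-box in 35.5% of the 62 listed thylakoid genes, and in 21.0% and 16.1% when only the bases before the start were read. In 24 listed electron transport genes an I-box was in 45.8%, or 25.0% before the start, site II in 37.5% and a G-box in 8.33%. The MSA core was in 36.8% of 19 listed cell cycle genes, against 6.56% of all promoters, and in 21.1% before the start, against 5.28%. None of the 36 listed SAUR-like genes and none of the 18 listed XTH genes held a G-box in this window. At the share of all promoters, groups of this size would hold few. No match says only that these letters are absent from the window.

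Members that also differed between MLB and EMS27, the rrc1 mutant of MLB that carries a mutation in RRC1, a splicing-related gene of phyB signalling, are set side by side here. Both comparisons use the MLB red libraries, so they are not independent, and the genes shown were chosen after their values were seen and do not represent the overlap. The authors' comparison of MLB over EMS27 listed 1146 genes (5.99% of 19143 tested). For each gene that follows, the first value is MLB red over MLB dark and the second MLB red over EMS27 red. FRO6 had 4.75 and 3.04, MAM1 4.82 and 3.58, BAM3 6.29 and 1.38, LOX2 6.74 and 1.30, and RCA 4.47 and 1.12 in the authors' deposited table. Among the falls, ABI3 had -2.13 and -2.14, ABI5 -1.93 and -1.85, ST2A -2.43 and -2.71 and IAA20 -4.49 and -2.05 in the authors' deposited table. Among starvation genes, DIN2 had -1.82 and 3.76, and BCAT2 -2.82 and 1.79 in the authors' deposited table. DIN2 and BCAT2 were thus lower in red light than in darkness, and higher in MLB than in EMS27 under red light. The genes with splicing events between Col-0 and rrc1-689 in red light, from libraries the red and dark comparison did not use, numbered 270. Of these 40 were members here, which is 14.8% of the genes with events and 1.03% of the members, and 30 of the 40 were higher and 10 lower. The share of 14.8% is near the 13.0% of all protein-coding genes that were listed and below the 19.5% of tested genes. Genes with events must be expressed, as tested genes are, so the 2 backgrounds differ in kind.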

How the data were processed

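RNA-seq was run on whole seedlings, 3 libraries in each of 8 groups, named by their titles. The submitters' processing notes name TopHat2 2.1.1 as the aligner and TAIR10 as the build. Genes were compared with ASpli 1.9, per the deposited information sheet. The deposited tables give log2 fold changes with p-values and FDR values for genes past both of the authors' limits (absolute log2 fold change above 1, FDR below 0.01). No library totals or counts per library are in the tables used, so depth is unknown, no model was fitted here, and a ratio can rest on few reads. How shared or overlapping reads were counted is not given in the sources used here.

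From these tables, Python 3.11.15 with pandas 2.3.3 and pysam 0.24.0 counted listed genes by direction. The number of tested genes was recovered from FDR and p-value ranks; 98.0% of listed genes gave a whole rank within 0.01, and the method was tested on simulated data. Gene names, products and coordinates came from the TAIR10.1 RefSeq annotation. Members and lists were chosen with earlier results of these data known, and some list entries and family patterns were corrected for identity afterwards. Named genes were drawn from the 20 largest rises and falls, the 4 largest per list and direction and the largest per family and direction, without naming every one; other genes were chosen after their values were seen. Families described had at least 15 annotated members and 3 listed ones, apart from growth-regulating factors, thionins and others the text gives as looked up afterwards. The alternatives were a limit of 2 on the log2 fold change, an FDR below 0.00001, leaving out overlapping genes, and promoters of 250 bases before the start only.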

Additional observations from a re-analysis of the deposited data

How the results depend on the processing

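With a minimum absolute log2 fold change of 2, the authors' deposited table held 1021 genes higher and 359 lower in MLB red, against 2540 and 1347 at the authors' limit. An FDR below 0.00001, or leaving out genes that overlap another locus, kept both counts within 1.5 times. The temperature and stress chaperone list changed its majority: 55.6% of 9 listed members were higher at an FDR below 0.00001, against 41.7% of 12, and the cause was not tested. The share of listed members higher in MLB red was compared over lists and families. A share counted as moved where it lay outside the 95% confidence interval of its value under the main settings. With the limit of 2, 30 moved and 50 did not, and with the stricter FDR 2 moved and 80 did not. Without overlapping genes 2 moved and 81 did not. Such intervals are wide for few genes, so a share that did not move can still differ. With the limit of 2, expansins went from 58.3% of 12 genes to 80.0% of 5, and the cuticle list from 70.0% of 10 to 50.0% of 6. Of the motif shares, 7 moved and 13 did not when only the 250 bases before the start were read. No paired analysis was possible because the deposited table gives no value per library; for the same reason leaving out each replicate in turn was not run.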
